A study of Homo sapiens with 14 samples.

Results

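The genes described here are 10 components of the Notch pathway in CHP-134 cells, an established human neuroblastoma line in which the gene for N-MYC is amplified. They comprise 5 ligands or ligand-like proteins (DLL1, DLL3, DLK1, JAG1 and JAG2), 2 receptors (NOTCH1 and NOTCH3) and 3 nuclear factors of the HES and HEY family (HES1, HES6 and HEY1), and they were found by gene symbol among the 17810 and 19143 genes of a pair of RNA-seq count tables. The first table holds 3 EGFP and 3 OmoMYC libraries. These come from separately engineered CHP-134 lines in which a lentiviral Tet-On vector drives either the fluorescent protein EGFP or OmoMYC, a mutated MYC dimerization domain that competes with MYC proteins for partners and DNA. Both lines were grown in serum suited to tetracycline systems and received 1 µg/ml doxycycline for 3 days, so the agent itself is shared and the difference between the groups also includes any difference between the lines. The second table holds 4 DMSO and 4 dTAG47 libraries from parental CHP-134 cells in standard serum, treated for 18 h with 500 nM dTAG47 or its solvent. The compound directs proteins that carry an FKBP12 F36V tag to degradation, and parental cells carry no such tagged protein, so this comparison asks what the compound does by itself.

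Notch receptors are cut by proteases when a ligand on a neighbouring cell binds them, and the released intracellular part joins the DNA-binding protein RBPJ to switch on target genes. HES and HEY factors are the best known targets, and in the developing nervous system they hold back the proneural factors that start neuronal differentiation. DLL1, JAG1 and JAG2 are activating ligands, whereas DLL3 mostly acts within the cell that makes it and DLK1 is a related protein without the receptor-binding DSL domain. HES6 is set apart from HES1 in that it opposes HES1 and favours neuronal differentiation.

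The sequences that best frame the nuclear factors are the stretches just upstream of HES1, the textbook Notch target, and of HES6, the most abundant of the 10 genes per length. They are RefSeq sequences of GRCh38.p14, the 250 bases before the annotated start, written 5′ to 3′ on the strand of the gene. HES1 lies at chr3:194135898-194136147 on the plus strand and HES6 at chr2:238240039-238240288 on the minus strand. Capitals mark every match, on either strand, to TGGGAA (the core of RBPJ sites), CAGCTG (an E-box used by proneural dimers) or CACGTG (the E-box of MYC dimers).
HES1: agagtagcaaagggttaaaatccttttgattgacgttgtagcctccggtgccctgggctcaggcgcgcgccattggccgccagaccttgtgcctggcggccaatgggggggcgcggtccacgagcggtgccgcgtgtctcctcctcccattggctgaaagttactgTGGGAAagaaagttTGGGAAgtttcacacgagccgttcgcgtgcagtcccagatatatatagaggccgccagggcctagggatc
HES6: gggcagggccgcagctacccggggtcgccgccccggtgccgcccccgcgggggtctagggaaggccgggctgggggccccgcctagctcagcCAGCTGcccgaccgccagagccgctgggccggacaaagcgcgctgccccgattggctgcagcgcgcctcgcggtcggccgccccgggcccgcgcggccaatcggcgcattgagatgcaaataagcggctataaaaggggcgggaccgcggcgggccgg
The HES1 window held TGGGAA at 84 and 70 bases before the start, and the HES6 window held CAGCTG at 158 bases before it. No match to any of the 3 motifs was found in the windows of JAG1, JAG2, NOTCH1 and NOTCH3. Among the 35116 windows of this length in the table, 20.8% held TGGGAA or its reverse complement TTCCCA, 6.34% held CACGTG and 4911 held CAGCTG. A match is a description of letters and not of binding. The table matched 6 of the 10 genes, and DLL1, DLL3, DLK1 and HEY1 had no entry.

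Libraries held 28060817 to 38358128 counts in the OmoMYC experiment and 40861430 to 53451641 in the parental one, and all 10 genes passed the filter on low counts in both. Levels are given as CPM, read counts scaled to a common library size, as mean ± SD with n = 3 in the OmoMYC experiment and n = 4 in the parental one. A gene is called changed at an adjusted p below 0.05 in edgeR's quasi-likelihood test with Benjamini-Hochberg adjustment over all tested genes, and log2 fold changes come from that fit with 95% intervals. An exact permutation test of 1 gene could not go below 0.1 with 3 libraries against 3, or below 0.0286 with 4 against 4. The 10 neuroblastoma markers, among them GATA3, HAND2 and MYCN, were all counted and summed to between 4129 and 5004 CPM in every library. In EGFP libraries the amplified MYCN made the largest part of that sum, at 2712 CPM, while TH and DBH averaged 0.238 and 0.405 CPM. Reads on MYC, to which the OmoMYC transgene adds, ranged from 16 to 20 per EGFP library and from 15040 to 20295 per OmoMYC library, as the labels would have it. Replicate libraries differed by more than sampling noise in every pair, most of all EGFP replicates 1 and 3, whose chi-square over its degrees of freedom was 42.1. The dTAG47 replicate 2 library stood apart in its epithelial keratins, with 202 counts of KRT8, 46 of KRT18 and 55 of KRT19, where the other parental libraries held 0 to 4.

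With OmoMYC, 3 of the 10 genes fell, 1 rose and 6 were not called. The ligand DLL1 rose 2.28-fold, and DLL3, NOTCH1 and HES6 fell to between 0.642 and 0.710 of their EGFP level. Over all 13803 tested genes, 53.0% were called, 25.7% lower and 27.3% higher, so 4 of 10 is no larger a share than that of genes at large. The median log2 fold change of the 10 genes was -0.24, against 0.01 over all tested genes. Groups that did not overlap were seen for those 4 genes, against 62.3% of all tested genes (32.0% higher and 30.3% lower with OmoMYC). The same 4 of the 10 had an unadjusted p below 0.05, as had 59.2% of all tested genes.

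**Figure D1:**
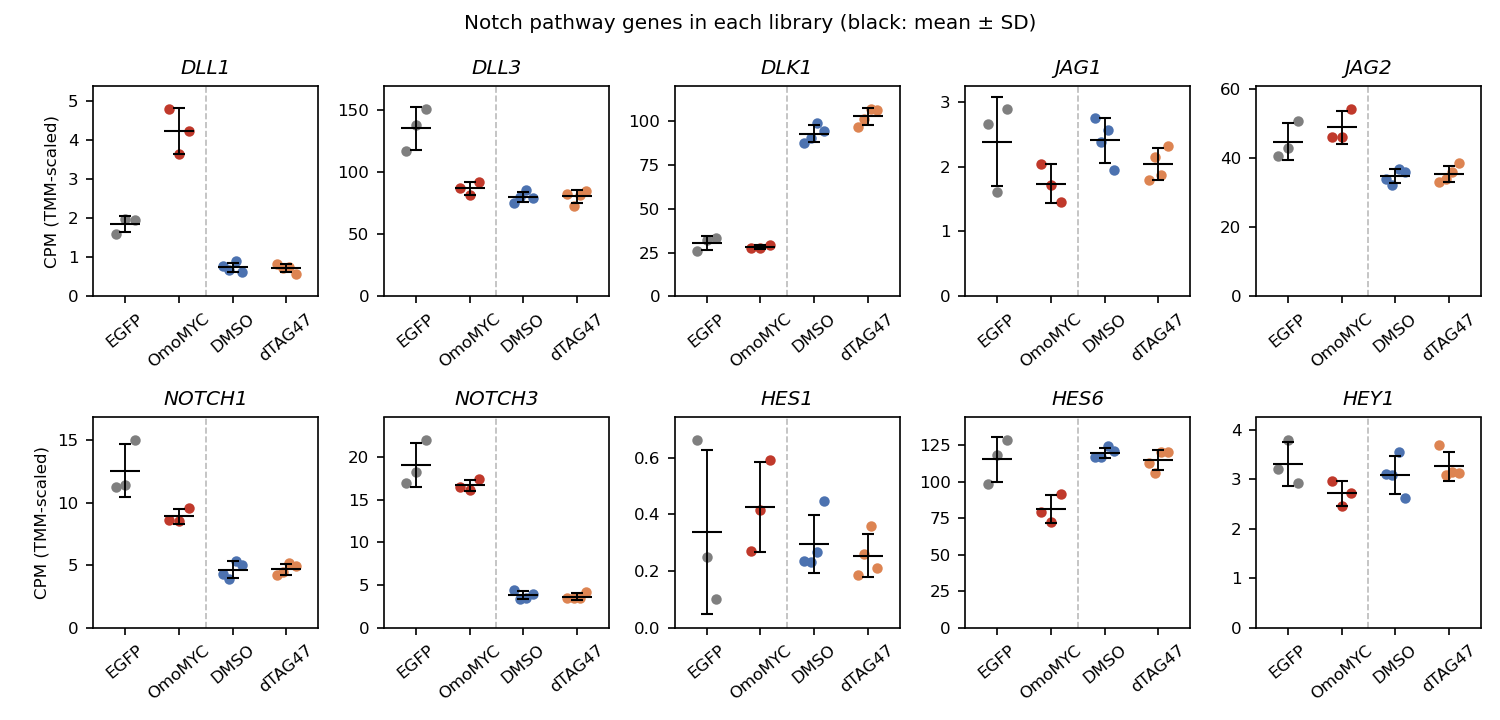
Expression of the 10 genes in CPM (vertical axis, linear, from 0, a separate scale for each gene) in every library of the 4 groups, with a bar at each group mean, whiskers of 1 SD and n = 3 or 4. The OmoMYC points of DLL1 lie above and those of DLL3, NOTCH1 and HES6 below all EGFP points, while DMSO and dTAG47 points overlap for every gene.

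DLL1 (ENSG00000198719.7, chr6:170591294-170615653, minus strand, GRCh37) encodes a Delta ligand that activates Notch on neighbouring cells. It stood at 1.61, 1.97 and 1.96 CPM in the EGFP libraries, from 51 to 57 counts, and at 4.81, 3.63 and 4.24 CPM with OmoMYC, from 129 to 141 counts. Every OmoMYC library was above every EGFP library. The log2 fold change was 1.19 (SE 0.17, 0.82 to 1.56, adjusted p = 0.000219), the 1 rise among these 5 ligand genes that passed the test. Exons of DLL1 overlap those of FAM120B on the opposite strand over 370 bases, and whether the counting used strand is not given in the sources used here. FAM120B was much more abundant and rose from 32.9 to 38.9 CPM (log2 fold change 0.24, adjusted p = 0.0279), and its part in the counts of DLL1 was not tested.

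DLL3 (ENSG00000090932.6, chr19:39989535-39999121, plus strand) is a divergent Delta protein that is abundant in neuroendocrine tumours. Its level was 117, 138 and 151 CPM with EGFP and 86.9, 81.3 and 92.3 CPM with OmoMYC. All OmoMYC libraries were lower, although EGFP replicates spread more widely than OmoMYC replicates (SD 17.3 against 5.53 CPM). The log2 fold change was -0.64 (SE 0.10, -0.85 to -0.43, adjusted p = 0.000377). DLL3 thus moved opposite to DLL1.

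The other 3 ligand genes were not called. DLK1 (ENSG00000185559.9, chr14:101192042-101204561, plus strand), a cell surface protein of chromaffin and neuroblast lineages, was at 25.9, 32.3 and 33.2 CPM with EGFP and 27.6, 27.7 and 29.3 CPM with OmoMYC (log2 fold change -0.11, -0.33 to 0.11, adjusted p = 0.385). JAG2 (ENSG00000184916.4, chr14:105607319-105635161, minus strand), the more abundant Jagged ligand here, averaged 44.6 ± 5.33 CPM in the EGFP line and 48.8 ± 4.74 CPM in the OmoMYC line (log2 fold change 0.13, -0.10 to 0.36, adjusted p = 0.318). JAG1 (ENSG00000101384.7, chr20:10618332-10654647, minus strand) was at 2.65, 1.61 and 2.89 CPM against 2.05, 1.71 and 1.45 CPM (log2 fold change -0.47, -0.98 to 0.05, adjusted p = 0.115). Exons of JAG1 overlap the antisense gene ENSG00000270792 over 306 bases and those of JAG2 overlap ENSG00000257622 on the same strand over 469 bases. The groups overlapped for all 3 genes, and the intervals leave room for changes in either direction. Calls of DLK1 and JAG1 turned on 1 EGFP library each. Without EGFP replicate 1, DLK1 was called lower at a log2 fold change of -0.23 (adjusted p = 0.0151). Without EGFP replicate 2, JAG1 was called lower at -0.70 (adjusted p = 0.0204).

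Of the receptors, NOTCH1 fell and NOTCH3 was not called. NOTCH1 (ENSG00000148400.9, chr9:139388885-139440500, minus strand) stood at 11.3, 11.4 and 14.98 CPM with EGFP and at 8.59, 8.51 and 9.60 CPM with OmoMYC. The groups did not overlap, and the log2 fold change was -0.49 (SE 0.13, -0.78 to -0.21, adjusted p = 0.00819). NOTCH3 (ENSG00000074181.4, chr19:15269849-15311806, minus strand), the more abundant receptor in these lines, was at 16.9, 18.3 and 22.0 CPM against 16.5, 16.1 and 17.4 CPM (log2 fold change -0.19, -0.43 to 0.04, adjusted p = 0.150). Its highest OmoMYC library lay above its lowest EGFP library. Without EGFP replicate 1 it was called lower at -0.29 (adjusted p = 0.0151). Whether the changes of the receptors differ from each other was not tested.

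Among the nuclear factors, HES6 fell, HEY1 was not called and HES1 was close to the limit of detection. HES6 (ENSG00000144485.6, chr2:239146908-239149303, minus strand) stood at 98.8, 119 and 129 CPM with EGFP and at 79.0, 72.9 and 91.7 CPM with OmoMYC. All OmoMYC libraries were below all EGFP libraries, with a log2 fold change of -0.51 (SE 0.11, -0.75 to -0.26, adjusted p = 0.00336). HEY1 (ENSG00000164683.12, chr8:80674606-80680092, minus strand), a repressor that responds to Notch in many tissues, was at 3.22, 3.80 and 2.93 CPM against 2.97, 2.46 and 2.73 CPM (log2 fold change -0.29, -0.63 to 0.05, adjusted p = 0.139). HES1 (ENSG00000114315.3, chr3:193853937-193856521, plus strand) had 21, 7 and 3 counts in EGFP libraries and 8, 16 and 18 in OmoMYC libraries. At this depth a change of HES1 was not detectable, since its log2 fold change of 0.29 had an interval from -0.909 to 1.498 (adjusted p = 0.672).

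**Figure D2:**
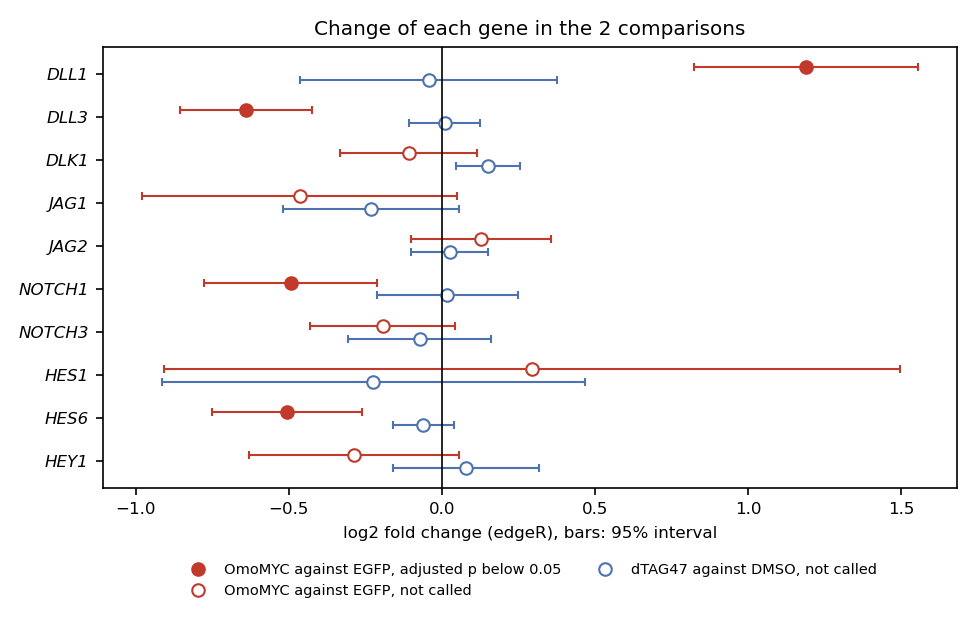
Log2 fold change of each of the 10 genes (horizontal axis) with its 95% interval, for OmoMYC against EGFP and for dTAG47 against DMSO, with called genes marked. With OmoMYC the intervals of DLL1 (0.82 to 1.56), DLL3, NOTCH1 and HES6 exclude 0, and with dTAG47 the interval of DLK1 alone does (0.04 to 0.25), without a call.

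The order of the 10 genes can be compared only per length, here as CPM per kilobase of exon. In EGFP libraries HES6 (59.0) and DLL3 (51.7) headed the order and overlapped each other. JAG2 (6.98), DLK1 (5.80), NOTCH3 (2.03) and NOTCH1 (1.00) followed, each apart from its neighbour, though JAG2 and DLK1 only just. HEY1 (0.604), DLL1 (0.484), JAG1 (0.256) and HES1 (0.165) came last, of which JAG1 and HES1 overlapped. In OmoMYC libraries HES6 was at 41.5 and DLL3 at 33.2 CPM per kilobase, and DLL1, at 1.11, had passed NOTCH1 at 0.710 and HEY1 at 0.496. In DMSO libraries the order began HES6 (61.4), DLL3 (30.5), DLK1 (17.7) and JAG2 (5.44), and HEY1 (0.564) stood above NOTCH3 (0.410) and NOTCH1 (0.371), which overlapped. A level of DLL1 (0.195) could not be set apart from that of JAG1 (0.259) or HES1 (0.144) there.

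**Figure D3:**
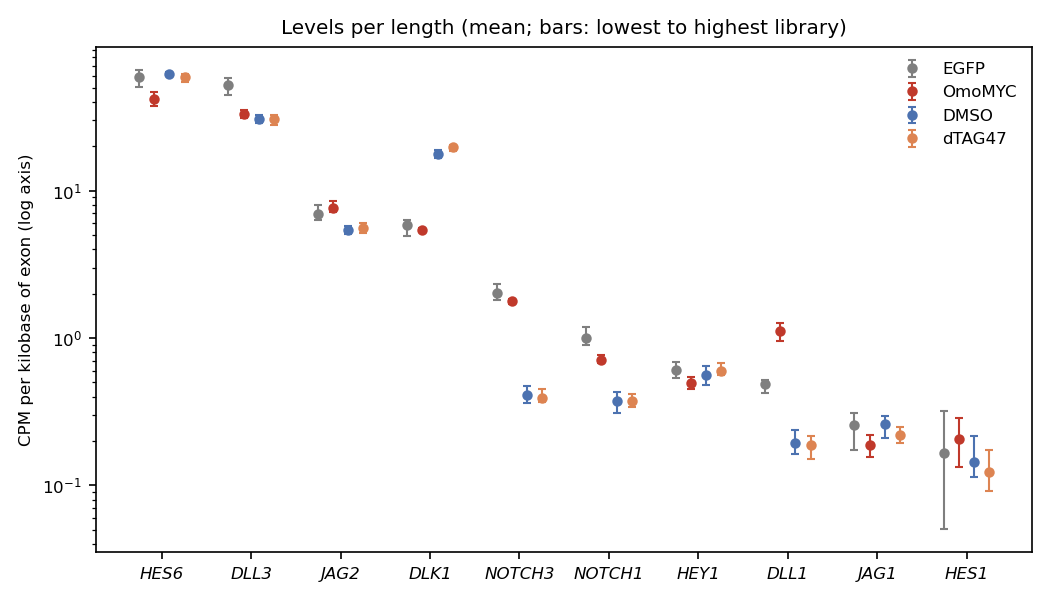
Level of each gene in CPM per kilobase of exon (log axis) in the EGFP, OmoMYC, DMSO and dTAG47 groups, with a point at each group mean and bars from the lowest to the highest library. HES6 and DLL3 lie highest in every group, with group means of 30.5 to 61.4, and HES1 lies lowest or next to lowest, at group means of 0.124 to 0.207.

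Levels differed between the EGFP and DMSO controls as well, and these values stand side by side without a test. DLK1 was 3.05-fold higher in DMSO than in EGFP libraries, while NOTCH3 was 4.94-fold, NOTCH1 2.70-fold, DLL1 2.48-fold and DLL3 1.69-fold higher in EGFP libraries. HES6 differed little, with a ratio of EGFP to DMSO of 0.962. The cell line, serum, doxycycline and culture time differ between these tables, counting may differ too, and their parts cannot be told apart. Identifiers shared by the tables numbered 17227. Of these genes, 80 were at 50 or more CPM in every DMSO library and at 1 or less in every EGFP library. ACTG1, TUBB and KAT2A were among them, 0 genes showed the reverse, and the cause was not tested.

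Other components of the pathway moved in both directions with OmoMYC. Of 74 tested genes in 7 further lists, 18 fell, 27 rose and 29 were not called, a median log2 fold change of 0.06. That 60.8% were called compares with 53.0% of all tested genes, and no list is held to be particular for it. Among other ligands and receptors, 5 of 7 rose and 1 fell. The neuronal non-canonical ligand DNER rose from 4.14 to 9.42 CPM (log2 fold change 1.18, adjusted p = 8.01e-05). The contactin CNTN1 rose from 11.6 to 22.6 CPM (0.96, adjusted p = 5.22e-05) and MFAP2, a microfibril protein, from 16.0 to 22.8 CPM (0.51, adjusted p = 0.00153). CCN3, a matricellular protein that binds Notch, fell from 2.11 to 1.48 CPM (-0.50, adjusted p = 0.0336), a call that DESeq2 and several sets without 1 library did not make (adjusted p up to 0.111). The ligand DLL4 was not called (-0.35, adjusted p = 0.133). NOTCH2 had 0 counts in each EGFP library and at most 2 in an OmoMYC library, and it was not tested. It averaged 0.896 CPM in DMSO libraries, and the cause of that difference was not tested. The row of NOTCH4 in this table has another identifier than in the parental table and was not compared.

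The list of other HES and HEY family members, which also holds the Notch target NRARP, split as well, with 2 of 5 falling and 1 rising. HES4 fell from 5.41 to 2.65 CPM (log2 fold change -1.03, adjusted p = 0.000734), and NRARP, an ankyrin-repeat protein that feeds back on Notch, fell from 7.82 to 4.55 CPM (-0.78, adjusted p = 0.000385). HEYL rose from 3.19 to 5.998 CPM (0.91, adjusted p = 0.000269). HES5 was not tested, at a mean of 0.0325 CPM with EGFP and 0.00865 CPM with OmoMYC.

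Of 13 genes that process or glycosylate the receptors, 2 fell and 5 rose. The fringe glycosyltransferase MFNG fell from 11.7 to 4.10 CPM (log2 fold change -1.51, adjusted p = 6.74e-06), and LFNG of the same family fell by 0.39 on the log2 scale (adjusted p = 0.0100). FURIN, the protease that cuts the receptor on its way to the surface, rose from 23.1 to 47.1 CPM (1.03, adjusted p = 3.03e-05). The gamma-secretase subunits APH1B (0.53, adjusted p = 0.00209) and PSEN2 (0.49, adjusted p = 0.00180) rose too. Of 13 genes of ligand and receptor trafficking, 6 rose, among them the ubiquitin ligases NEURL1 (0.93, adjusted p = 0.00110) and MIB2 (0.74, adjusted p = 0.00204) and the kinase AAK1 (0.87, adjusted p = 3.33e-05). The ubiquitin ligase ITCH was the 1 that fell (-0.36, adjusted p = 0.00440).

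In the RBPJ activator complex, 3 of 8 fell and 4 rose. RBPJ itself fell from 157 to 127 CPM (log2 fold change -0.30, adjusted p = 0.0239), a call lost without OmoMYC replicate 3 (adjusted p = 0.0739). The acetyltransferases CREBBP (0.82, adjusted p = 3.58e-05), KAT2B (0.56, adjusted p = 0.00496) and EP300 (0.39, adjusted p = 0.000789) rose, with CREBBP going from 183 to 323 CPM. The coactivators MAML3 (-0.33, adjusted p = 0.00623) and SNW1 (-0.22, adjusted p = 0.0153) fell, the latter call being lost without OmoMYC replicate 1 (adjusted p = 0.0568). The related MAML1 rose from 109 to 126 CPM (0.21, adjusted p = 0.0361), and MAML2 was not called (0.008, adjusted p = 0.971). Of 15 corepressors, 2 fell and 2 rose. L3MBTL3, which recruits a demethylase to RBPJ, fell from 26.2 to 13.8 CPM (-0.93, adjusted p = 2.69e-05), and BEND6 fell as well (-0.69, adjusted p = 0.000371). The Groucho family members TLE4 (0.51, adjusted p = 0.000125) and TLE1 (0.41, adjusted p = 0.00185) rose.

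Proneural factors and their ID antagonists had 7 falls and 4 rises among 13 tested. NEUROD1 fell from 489 to 241 CPM (log2 fold change -1.02, adjusted p = 4.23e-07), and the related NEUROD4 (-1.43, adjusted p = 7.83e-05) and NEUROG2 (-1.35, adjusted p = 0.00250) fell at far lower levels. The zinc finger factor MYT1 (0.83, adjusted p = 2.99e-05) rose, as did ID3 (0.62, adjusted p = 8.44e-05) and ID1 (0.54, adjusted p = 0.000814), which bind proneural partners and keep them off DNA.

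**Figure D4:**
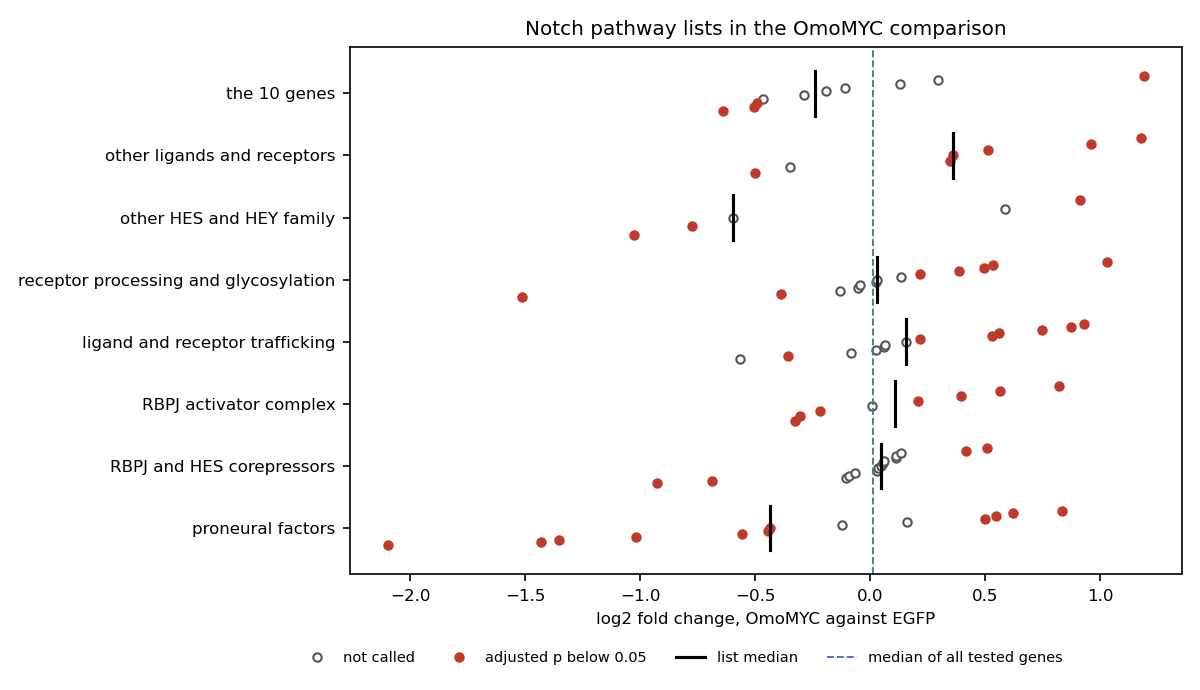
Log2 fold change (horizontal axis) of every tested gene in the 10 genes and in each of the 7 further lists, for OmoMYC against EGFP, with filled points for called genes, a line at each list median and a dashed line at the median of all tested genes. Each list holds genes on both sides of 0, and values run from -2.10 among the proneural factors to 1.19 for DLL1.

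Markers of other cell types moved with OmoMYC in part. The 6 fibroblast and mesenchymal markers summed to 374 to 386 CPM in EGFP and 285 to 314 CPM in OmoMYC libraries. Most of that sum was the transcription factor TWIST1, which fell from 283 to 211 CPM. COL1A2 and PDGFRB fell too, while COL1A1 rose from 21.2 to 31.5 CPM. The 5 Schwann cell markers summed to 6.09 to 8.85 CPM against 6.55 to 7.50 CPM, and SOX10, which defines that lineage, was at 0.855 and 0.851 CPM. Leukocyte and endothelial markers summed to under 1 CPM in each library of both groups. Of the 10 neuroblastoma markers, 5 rose, 1 fell and 4 were not called. The noradrenergic enzymes TH (log2 fold change 1.66, from 0.238 to 0.768 CPM) and DBH (1.49, from 0.405 to 1.16 CPM) rose from low levels, and ISL1 (0.75), STMN2 (0.47) and CHGA (0.37) rose from higher ones. MYCN fell from 2712 to 2240 CPM (log2 fold change -0.28, adjusted p = 0.0103). The part of any of these in the values of the 10 genes was not tested, and in bulk RNA fewer cells of a type and less RNA per cell cannot be told apart.

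In parental cells, dTAG47 gave no call among the 10 genes by edgeR, DESeq2 or limma-voom, and 1 of the 10, DLK1, had an unadjusted p below 0.05. Over all 14470 tested genes 0.159% were called (0.0415% lower and 0.117% higher) and 7.28% had an unadjusted p below 0.05. These shares depend on the fit. With a factor for replicates 1 and 2 against 3 and 4, 420 genes were lower and 374 higher, DLK1 among the latter. The groups overlapped for each of the 10 genes, while for 3.34% of all tested genes they did not (1.87% higher and 1.47% lower). The median log2 fold change of the 10 genes was -0.02, against -0.00182 over all tested genes. Without dTAG47 replicate 2, the library with keratin reads, 0 of the 10 were called as well.

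DLK1 stood at 87.5, 90.7, 99.1 and 94.2 CPM in DMSO libraries and at 96.8, 102, 107 and 106 CPM in dTAG47 libraries. The groups overlapped only through DMSO replicate 3 and dTAG47 replicate 1. Its log2 fold change was 0.15 (SE 0.05, 0.04 to 0.25, unadjusted p = 0.00826, adjusted p = 0.652). Parental DMSO libraries fell into replicates 1 and 2 on one side and replicates 3 and 4 on the other (chi-square over degrees of freedom 2.64 and 3.15 within, 8.70 to 11.3 between). In dTAG47 libraries replicates 3 and 4 were alike (2.66) and replicates 1 and 2 were not (8.17). A fit with a factor for that split gave the same log2 fold change of 0.15 with an adjusted p of 0.00440. Within replicates 3 and 4 it was 0.14 (adjusted p = 0.00671) and within replicates 1 and 2 it was 0.16 (adjusted p = 0.617). Its size hardly moved between these fits, while its call depended on the fit.

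The intervals of the other 9 genes bound what dTAG47 could have done. For the abundant genes they were narrow. DLL3 averaged 79.9 ± 4.39 CPM in DMSO libraries and 80.4 ± 5.29 CPM in dTAG47 libraries (log2 fold change 0.01, -0.11 to 0.12, adjusted p = 0.967). HES6 was at 120 ± 3.53 and 115 ± 6.75 CPM (-0.06, -0.16 to 0.04, adjusted p = 0.720) and JAG2 had an interval of -0.10 to 0.15. Neither the interval of DLL3 nor that of HES6 reached the log2 fold change of the same gene with OmoMYC, although treatments, times and lines differ and the difference between the effects was not tested.

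The receptors and scarcer genes had wider intervals. NOTCH1 averaged 4.65 ± 0.665 CPM in DMSO libraries and 4.69 ± 0.438 CPM in dTAG47 libraries (log2 fold change 0.02, -0.21 to 0.25), and NOTCH3 had an interval of -0.31 to 0.16. JAG1 was at 2.74, 2.38, 2.56 and 1.94 CPM against 1.79, 2.15, 1.87 and 2.32 CPM (-0.23, -0.52 to 0.06, adjusted p = 0.682), and 2 of its 4 dTAG47 libraries lay below every DMSO library. HEY1 had an interval of -0.16 to 0.32. DLL1, with 30 to 39 counts a library, had one of -0.46 to 0.38, and HES1, with 8 to 23 counts, one of -0.92 to 0.47, so that changes of these genes within those bounds were not detectable at this depth.

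None of the 78 tested genes of the 7 further lists was called with dTAG47 by edgeR, and 3 of them had groups that did not overlap, where 3.34% of all tested genes did so. These were PSENEN, a gamma-secretase subunit (log2 fold change 0.20, adjusted p = 0.652), DTX3L, a ubiquitin ligase (-0.49, adjusted p = 0.534), and ID3 (0.22, adjusted p = 0.163), named after their values were seen. NOTCH2 was counted at 28 to 57 reads a library here (-0.08), and RBPJ (-0.05) and DLL4 (-0.12) were not called. The Schwann cell markers summed to 7.76 to 8.77 CPM with DMSO and 10.1 to 12.6 CPM with dTAG47, while SOX10 was at 1.52 and 1.25 CPM, and the part of this in the values of the 10 genes was not tested.

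Over the 14 libraries, with each table centred on its own mean, the genes whose log2 CPM was most like that of each member are given as a description among 13424 genes. The pattern of DLL3 was closest to PRDM8 (Pearson r = 0.98), PROKR1 (0.98) and FJX1 (0.98). That of HES6 was close to RGMA (0.98) and FJX1 (0.97), so that FJX1 was named for both. DLL1 was closest to EPX (0.97), APOBEC3F (0.95) and LTBP2 (0.95), and NOTCH1 to ZBED4 (0.94), FOXN4 (0.94) and the proneural factor ATOH8 (0.93). Among genes that were not called with OmoMYC, JAG2 was closest to SRXN1 (0.98) and DLK1 to SHMT2 (0.92), and the closest genes of JAG1, NOTCH3, HES1 and HEY1 reached 0.86 to 0.90. These points share libraries, depth and the difference between EGFP and OmoMYC. The named genes were picked as the highest among 13424, so a high r does not by itself show shared regulation. HES1, with as few as 3 counts in a library, still reached 0.90 with ANO10.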

How the data were processed

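Per the methods and the submitters' notes, the authors used Cutadapt for trimming, STAR for alignment to hg19 and featureCounts for counting. The deposited values are raw counts per gene, without normalization. Ribosomal RNA had been depleted from total RNA. The annotation release, strandedness and treatment of reads with several alignments are not given in the sources used here. The replicates are biological replicates per the methods of the study, which used DESeq2.

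Counts were analysed in R 4.3.3. Each table was filtered with edgeR 4.0.16 (filterByExpr), scaled by TMM and tested by edgeR's robust quasi-likelihood test with Benjamini-Hochberg adjustment at 0.05. The code was tested on simulated data. Log2 CPM values carry a prior count of 2. The alternatives were DESeq2 1.42.0, limma-voom (limma 3.58.1), other scaling factors, no filter or at least 10 counts in every library, a replicate block, leaving out each library, and the split of parental replicates. Coordinates and exon lengths were read from a GENCODE release on GRCh37 (the hg19 assembly) and may differ from the authors' annotation. Genes were matched by symbol and compared between tables by identifier. MFAP5 and APH1A of the further lists were not analysed here with OmoMYC.

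All 10 genes are named. From each further list the text names called genes that averaged 1 CPM or more, at most 3 rising and 3 falling by size of change, plus NOTCH2, DLL4 and RBPJ, and the 3 genes most like each member were ranked by correlation. Some genes that this rule takes are not reported here. The members and lists were chosen with earlier results of these data known.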

Additional observations from a re-analysis of the deposited data

Results flagged for a closer look

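Of 20 groups of 4 parental libraries, a gene in a group each, 3 held an outlying library. In these, the gap of that library to its nearest neighbour exceeded Dixon's 95% critical value as a share of the range of the group. For normally distributed values, chance would give about 1 in 20 groups. HES1 was highest in DMSO replicate 4 at 0.446 CPM, with a gap of 0.837 of the range. Its counts in the DMSO libraries were 11, 11, 11 and 23. Ties among such low counts raise that share, so the critical value and the chance rate do not hold for HES1. HEY1 was highest in dTAG47 replicate 1 at 3.69 CPM, with a gap of 0.895 of the range. NOTCH3 was highest in dTAG47 replicate 4 at 4.23 CPM, with a gap of 0.947 of the range. None of these genes was called with dTAG47, with or without the library.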

How the results depend on the processing

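The calls of DLL1, DLL3, NOTCH1 and HES6 with OmoMYC held under all 14 alternatives, with log2 fold changes of 1.08 to 1.26, -0.75 to -0.58, -0.59 to -0.38 and -0.64 to -0.45. The number of the 10 genes called lower was 3 to 5 when single libraries were left out, 5 without EGFP replicate 1 (DLK1 and NOTCH3 added), and HES1 ranged from -0.16 to 1.25, turning without EGFP or OmoMYC replicate 3. HES1 was not tested where at least 10 counts were required. With the replicate block, 3 of the 10 remained lower and 1 higher with OmoMYC, while with dTAG47 1 was higher, DLK1 at 0.15 (adjusted p = 0.00579), and 362 genes in all were lower and 306 higher. Whether replicate numbers pair the samples could not be settled with 3 or 4 libraries in a group. Deviations of same-numbered libraries correlated at -0.07 to 0.29 (OmoMYC) and 0.0093 to 0.16 (parental). In these, 1 of 3 and 2 of 4 libraries correlated best with their own number. DMSO replicates 1 and 2 were closest to dTAG47 replicate 2, and DMSO replicates 3 and 4 to dTAG47 replicate 4. Counts over all genes with dTAG47 (6 lower, 17 higher) came to 15 and 44 by DESeq2, 420 and 374 with a factor for replicates 1 and 2 against 3 and 4, 3 and 4 for replicates 1 and 2 alone, 470 and 426 for replicates 3 and 4 alone, and 2 to 32 and 4 to 52 without single libraries, highest without dTAG47 replicate 2. Library totals alone gave 11 higher. DLK1 was the 1 gene of the 10 called higher, with that factor and in replicates 3 and 4 alone. Values near 0 with dTAG47 changed sign without single libraries, namely DLL1 (-0.12 to 0.054), DLL3 (-0.021 to 0.054), JAG2 (-0.018 to 0.053), NOTCH1 (-0.057 to 0.089), NOTCH3 (-0.15 to 0.0023), HES1 (-0.43 to 0.065) and NOTCH2 (-0.21 to 0.065). So did DLL3 with library totals (-0.00233), DLL1 in replicates 1 and 2 alone (0.090), and NOTCH1 (-0.040), NOTCH3 (0.018), DLL4 (0.023) and NOTCH2 (0.057) in replicates 3 and 4 alone. The cause of these changes was not tested. Depth limits HES1 and, in parental cells, DLL1.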
